A study of Mus musculus with 9 samples.

Results

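MHC class I antigen presentation was followed through 10 mouse genes, taken for their role in the pathway with earlier results of these data known. They were the heavy chains H2-K1 and H2-D1, the shared light chain B2m, the peptide transporter subunits Tap1 and Tap2 and the loading chaperone Tapbp. The others were the transcriptional coactivator Nlrc5 and the inducible proteasome subunits Psmb8, Psmb9 and Psmb10. All 10 were found in both deposited tables, of 21936 genes listed for tumour cells and 22060 for macrophages, and all 10 passed the filter of a mean of at least 1 CPM, the reads of a gene scaled to library size, that left 11190 and 11049 genes for testing.

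Class I molecules carry short peptides from inside a cell to its surface, where CD8+ T cells read them. Proteasomes cut proteins into peptides, TAP carries the peptides into the endoplasmic reticulum (ER), and tapasin, the product of Tapbp, holds an empty heavy chain and β2-microglobulin beside TAP until a peptide binds. Interferons raise most of these genes together, through factors such as IRF1 and NLRC5, and swap the constitutive catalytic subunits of the proteasome for the inducible ones. Macrophages present antigen as part of their normal work, whereas tumour cells with little class I are poorly seen by T cells.

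The 9 RNA-seq libraries came from C57BL mouse cells, with 1 library in each group. In the first experiment, bone marrow-derived macrophages (BMDM) of a GM and an M kind, as the submitters name them, were left untreated or treated for 4 h with tunicamycin, a drug that blocks N-linked glycosylation and so causes ER stress. In the second, macrophages of both kinds were kept for 12 h with or without tunicamycin and washed, and the medium they conditioned over the next 16 h was given for 24 h to Lewis lung carcinoma (LLC) cells, an established mouse lung tumour line. The 5 LLC groups were cells without conditioned medium, cells in GM or M medium from unstressed macrophages, and cells in GM or M medium from tunicamycin-treated macrophages, here called stressed media. No group of LLC cells in unconditioned medium kept in the same way is used here, so whatever is shared by all 4 media cannot be told apart from a change of medium as such.

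Assigned reads came to between 15020068 and 17128471 per LLC library and between 37695079 and 42751176 per macrophage library. In LLC cells 7 of 12 macrophage markers had no read in the cells without medium, among them Adgre1, Itgam and Ptprc, which had none in any LLC library. In the macrophages all 12 markers were present above 1 CPM. With 1 library per group no p-value was given between 2 libraries: fold changes between 2 libraries are ratios of CPM with 95% Clopper-Pearson intervals, which cover counting error only. The adjusted p-values come from edgeR quasi-likelihood fits over all libraries of a table with additive terms, which left 1 residual degree of freedom in each. They were Benjamini-Hochberg adjusted over all genes tested with a threshold of 0.05. The fits pool variance over genes, with a biological coefficient of variation of 4.28% in LLC cells and 11.5% in macrophages. The weight of the pooled variance (prior degrees of freedom) was 5.77 in macrophages. In LLC cells it was infinite, so no gene's own variation entered those p-values.

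The start of the heavy-chain and light-chain genes is shown first. H2-K1, H2-D1 and B2m were called lower in LLC cells given medium, H2-K1 in some fits only. Of these 3, only the heavy chains differed between the kinds of macrophage. RefSeq promoter windows on GRCm38.p6 were at hand for 8 of the 10 genes. Capitals mark matches, on either strand, to 4 short motifs: GGGNNNNNCC (NF-κB-like), AANNGAAA (the core of interferon response elements), TGACG (the core of the X2 box) and CCAAT (the core of the Y box, read as ATTGG on the other strand). X and Y boxes hold the complex through which NLRC5 acts on class I genes. The H2-K1 stretch is chr17:34000348-34000507 on the minus strand, up to the base before the start, and the B2m stretch is chr2:122147527-122147685 on the plus strand.
H2-K1: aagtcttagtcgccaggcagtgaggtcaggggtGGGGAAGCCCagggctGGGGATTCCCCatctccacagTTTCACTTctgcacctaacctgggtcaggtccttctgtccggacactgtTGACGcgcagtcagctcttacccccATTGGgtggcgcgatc
B2m: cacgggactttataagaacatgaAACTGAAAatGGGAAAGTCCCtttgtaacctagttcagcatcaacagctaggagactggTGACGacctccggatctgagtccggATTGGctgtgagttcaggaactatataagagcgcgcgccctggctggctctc

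Both stretches hold all 4 motifs in capitals, and the order of the last pair is the same. Between TGACG and ATTGG lay 20 bases in H2-K1, in B2m and in H2-D1. Of 32851 promoter windows of the same length, 0.475% held TGACG followed by ATTGG within 40 bases and 18 windows, of 15 genes, held the pair with a gap of exactly 20 bases. Those 15 genes included all 3 of these and the nonclassical heavy chain H2-M3. The single motifs were common, in 45.8%, 21.3%, 17.8% and 33.8% of the windows in the order given above. The NF-κB-like and interferon response matches of the 2 classical heavy chains sit in nearly the same 30 bases, at chr17:34000429-34000458 on the minus strand for H2-K1 and chr17:35262923-35262952 on the plus strand for H2-D1, with 29 of 30 bases identical.
H2-K1: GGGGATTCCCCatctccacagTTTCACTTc
H2-D1: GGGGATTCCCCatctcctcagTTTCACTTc

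Tap1 and Psmb9 are transcribed away from each other from one stretch of chromosome 17. Their overlapping windows held 5 NF-κB-like matches each, TGACG and CCAAT, but no interferon response core and not the pair in that order. None of the 4 motifs lay in the windows of Psmb8 and Psmb10, and Tapbp held CCAAT alone. The gap of 20 bases was taken from H2-K1, windows of one gene can overlap, and no window was at hand for Tap2 and Nlrc5. These matches describe letters in a window and are not measured sites.

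On GRCm38, 7 of the 10 genes lie in the major histocompatibility complex on chromosome 17: Tapbp at chr17:33915899-33929292, H2-K1 at chr17:33996017-34000347, Psmb9 at chr17:34181987-34187764, Tap1 at chr17:34187553-34197225, Psmb8 at chr17:34197721-34201454, Tap2 at chr17:34203527-34216321 and H2-D1 at chr17:35262730-35267499. H2-K1 and Psmb9 are on the minus strand there and the other 5 on the plus strand. B2m lies at chr2:122147686-122153083 (plus strand), Nlrc5 at chr8:94434356-94527272 (plus strand) and Psmb10 at chr8:105935735-105938444 (minus strand).

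**Figure D1:**
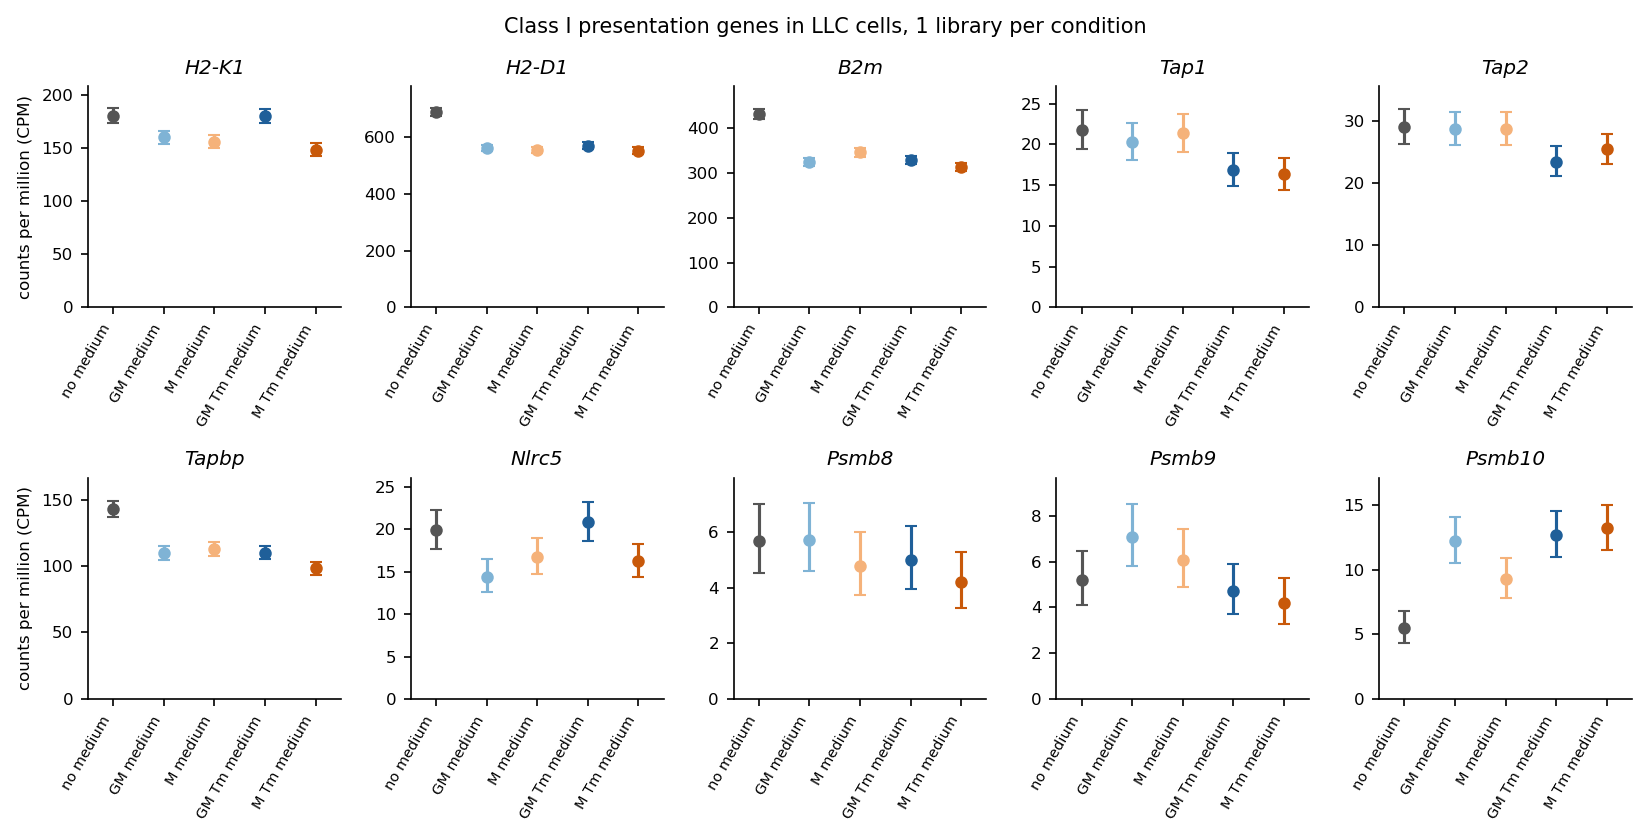
CPM of each of the 10 genes (vertical axis, linear from 0) in the 5 LLC libraries, with exact 95% Poisson intervals that cover counting error only. H2-D1, B2m and Tapbp lie higher in the cells without medium than in all 4 media, and Psmb10 lies lower there, at 5.47 CPM. Tap1, Tap2 and H2-K1 are also highest without medium, but some media lie close to them. The share of all genes that separate in this way was not counted.

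In LLC cells that received macrophage medium, B2m, H2-D1 and Tapbp fell and Psmb10 rose, while H2-K1 was called lower in some fits only. B2m encodes the light chain that every classical class I molecule needs to reach the surface. It was at 431 CPM without medium, 324 in unstressed GM medium, 345 in unstressed M medium, 327 in stressed GM medium and 312 in stressed M medium. The cells without medium were the highest and the 4 media lay close together below them. The fitted change over all 4 media was -0.40 ± 0.06 (log2 fold change ± SE; edgeR adjusted p = 5.8e-10), a level 1.32-fold lower.

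The heavy chains followed with smaller changes. H2-D1 was at 686 CPM without medium, 561 and 553 in unstressed GM and M media and 568 and 552 in the stressed ones, a fitted change of -0.30 ± 0.06 (edgeR adjusted p = 3.02e-06). H2-K1 was at 180.0 CPM without medium, 159.6 in unstressed GM, 156 in unstressed M, 179 in stressed GM and 148 in stressed M medium. Here the groups did not part cleanly, since stressed GM medium equalled no medium (ratio 0.997, interval 0.946 to 1.05). The fitted change of H2-K1 was -0.17 ± 0.07 (edgeR adjusted p = 0.027), and it was not called by DESeq2 (adjusted p = 0.27) or with the medium term alone in the fit (0.35). Per length, H2-D1 messages were 4.34 times as abundant as those of H2-K1 without medium and between 3.61 and 4.24 times with a medium.

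Tapbp, which bridges TAP and the empty heavy chain, was at 143 CPM without medium and 109.7, 113, 110.1 and 98.2 in unstressed GM, unstressed M, stressed GM and stressed M media. All 4 media lay below the untreated cells, and the fitted change was -0.41 ± 0.07 (edgeR adjusted p = 1.42e-08). The transporter subunits did not pass this test. Tap1 was at 21.7 CPM without medium, 20.3 and 21.4 in the unstressed media, and 16.8 and 16.3 in the stressed media (change -0.23 ± 0.13, edgeR adjusted p = 0.153). Tap2 was at 29 CPM without medium, 28.7 and 28.6 in the unstressed media, and 23.4 and 25.4 in the stressed media (edgeR adjusted p = 0.368). For both genes the 2 stressed media gave the lowest libraries, a split that was not counted over all genes.

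Nlrc5, the coactivator of class I promoters, did not pass either, at 19.9 CPM without medium, 14.4 and 16.8 in unstressed GM and M media, and 20.8 and 16.3 in stressed GM and M media (edgeR adjusted p = 0.172). Its 5 values followed no group: the lowest and the highest were both from GM media.

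Of the inducible proteasome subunits only Psmb10 passed. Psmb10, the inducible counterpart of the trypsin-like subunit Psmb7, was at 5.47 CPM (83 reads) without medium, 12.2 in unstressed GM, 9.29 in unstressed M, 12.7 in stressed GM and 13.2 in stressed M medium. The 4 media were all above the untreated cells, and the fitted change was 1.11 ± 0.21 (edgeR adjusted p = 6.31e-07), a level 2.15-fold higher. Psmb8, the counterpart of the chymotrypsin-like Psmb5, was at 5.66 CPM without medium and between 4.2 and 5.72 with a medium. Psmb9, the counterpart of Psmb6, was at 5.2 CPM without medium and between 4.2 and 7.08 with one. With 71 to 109 reads a library, neither differed beyond error (edgeR adjusted p = 0.513 for Psmb8 and 0.879 for Psmb9).

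In all, 1 of the 10 genes rose and 4 fell with medium. Over all 11190 genes tested 24.9% rose and 21.9% fell, so the count of calls among the 10 is near that of the table as a whole. Their median change was -0.22, beside 0.02 for all genes. The same untreated library stands on one side of every one of these comparisons, and no second library of it was sequenced. The error of the fit comes from the 4 media alone, pooled over genes. It is assumed that untreated cells vary like these, so the adjusted p-values for medium hold no measured variation of untreated cells. With the medium term alone in the fit, the adjusted p-values of B2m, H2-D1, Tapbp and Psmb10 were far larger, though the calls stayed. Of single media against no medium, Psmb10 was past 2-fold higher on the log2(CPM + 1) scale in unstressed GM, stressed GM and stressed M medium, where 1.04%, 1.48% and 1.22% of all genes were so. In unstressed M medium Psmb10 was 1.7-fold higher (interval 1.29 to 2.25).

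Other genes of the pathway were called mostly in 1 direction per list in LLC cells, where 24.9% of all genes rose and 21.9% fell. Of 19 genes of the constitutive proteasome and its activators, 16 rose with medium and none fell (median change 0.37), among them the catalytic subunits Psmb5 (0.61 ± 0.14), Psmb6 (0.22 ± 0.07) and Psmb7 (0.30 ± 0.08) and the activator subunit Psme2 (0.33 ± 0.12), all with edgeR adjusted p-values under the threshold. Psme1, its partner, was at -0.09 ± 0.11 and was not called. Of 18 genes of peptide loading and trimming, 11 rose and none fell (median 0.25). The oxidase Ero1l was at 1.07 ± 0.07 and the lectin chaperone Calr, which also serves general protein folding, at 0.38 ± 0.06. Erap1, the ER aminopeptidase that trims class I peptides, was at 0.01 ± 0.09 and was not called. All 14 ER stress genes in the lists rose too (median 0.62).

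Of 9 other class I heavy chains tested in LLC cells, 4 fell and none rose (median -0.42), where 21.9% of all genes fell. Mr1, which presents vitamin metabolites, fell most, by 0.91 ± 0.10 on the log2 scale (edgeR adjusted p = 5.25e-18), from 53.5 CPM without medium to 33.1 and 37.8 in unstressed GM and M media and 25.6 and 20.4 in the stressed ones. The others that fell were H2-Q4 (-0.42 ± 0.14), H2-T23 (-0.43 ± 0.14) and H2-M3 (-0.45 ± 0.19).

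Regulators of class I transcription were called in both directions, 2 higher and 4 lower of 28 tested (median 0.00). Over all genes tested 24.9% rose and 21.9% fell, larger shares than in this list. Irf1 rose by 0.55 ± 0.14. Rfx5, a subunit of the complex on the X box, fell by 0.48 ± 0.13 and Stat2 by 0.56 ± 0.09. No interferon ligand of the 10 listed passed the filter, and Ifnb1, Ifng and all 5 type I α genes in the list had no read in any LLC library. Of 11 interferon-stimulated genes with no class I role, 2 rose and 2 fell (median 0.06), also smaller shares than over all genes.

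Markers of macrophages were lower in LLC cells given medium, with a median fitted change of -0.69 over the 3 tested. The summed level of all 12 was 24.9 CPM without medium and between 13.3 and 18.1 with a medium, most of it Mertk and Lyz2. The epithelial list summed to 364 CPM without medium and to between 454 and 526 with one, and the fibroblast list to 92.4 CPM without and 63.2 to 116 with one. Dendritic cell markers summed to 38 CPM without medium and to between 22.6 and 27.7 with one, and of 4 tested 2 fell and none rose (median -0.49). What part such differences have in the class I values was not tested.

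**Figure D2:**
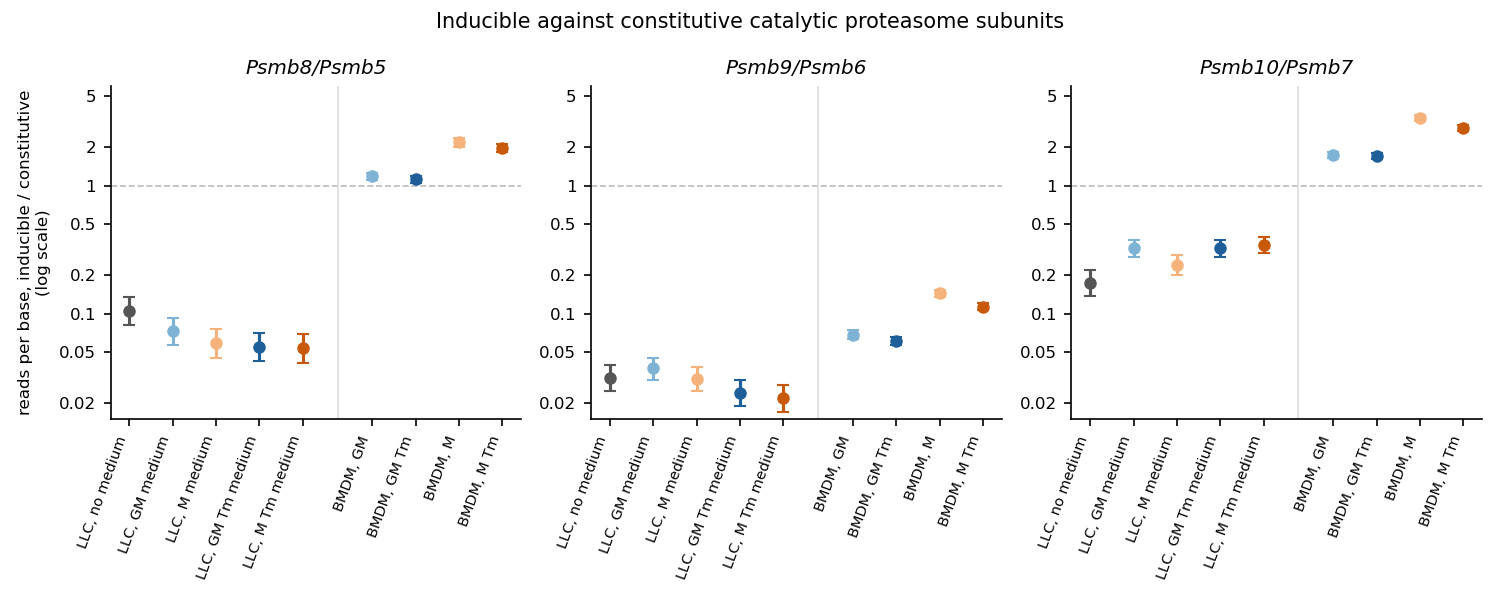
Reads per base of each inducible proteasome subunit over those of its constitutive counterpart (vertical axis, log scale) in the 5 LLC and 4 macrophage libraries, with 95% Clopper-Pearson intervals. In LLC cells Psmb10/Psmb7 is lowest without medium, at 0.175, and Psmb8/Psmb5 is highest there, at 0.105, and in macrophages all 3 ratios are higher in M-BMDM than in GM-BMDM.

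Set over their constitutive counterparts, the inducible subunits of LLC cells gave 3 different pictures, which were not tested against each other. Psmb10/Psmb7 per length was 0.175 without medium and 0.324, 0.242, 0.325 and 0.345 in unstressed GM, unstressed M, stressed GM and stressed M media. The 4 media were all higher, by 1.38- to 1.97-fold, and none of the 4 intervals of the change reached 1. Psmb8/Psmb5 was 0.105 without medium and 0.0729, 0.0586, 0.0553 and 0.0539 in the same order. The 4 media were all lower, by 1.45-fold (interval 1.03 to 2.04) to 1.95-fold (interval 1.37 to 2.79), where Psmb5 rose and Psmb8 did not pass the test. Psmb9/Psmb6 was 0.0315 without medium, 0.0374 and 0.031 in the unstressed media and 0.0242 and 0.0218 in the stressed ones. These intervals cover counting error only, and Psmb10, Psmb8 and Psmb9 were the least read of the 10 genes in LLC cells.

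Whether the macrophages had met tunicamycin before they conditioned the medium touched few of the 10 genes in LLC cells. Tap1 fell by 0.33 ± 0.12 on the log2 scale (edgeR adjusted p = 0.0336), with 16.8 and 16.3 CPM in the 2 stressed media against 20.3 and 21.4 in the unstressed ones. The call was lost with the tunicamycin term alone in the fit (adjusted p = 0.1), and DESeq2 gave no adjusted p for it. Psmb9, which shares its start region with Tap1, was at 4.72 and 4.2 CPM in stressed media and 7.08 and 6.06 in unstressed ones (change -0.56 ± 0.22, edgeR adjusted p = 0.0504). The libraries of the 2 stressed media were below both unstressed ones for each of these genes. The share of all genes that separate in this way was not counted. By the edgeR fit 10.9% of all genes were called lower in this comparison. Psmb9 did not pass the threshold, nor did any of the other 8 genes. Nlrc5 was 1.45-fold higher in stressed than in unstressed GM medium (interval 1.22 to 1.72) and 0.97 times as high for M medium (interval 0.815 to 1.15).

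In the same comparison, 9 of the 18 other genes of peptide loading and trimming rose with stressed medium, among them Calr (0.53 ± 0.05), Canx (0.34 ± 0.05), Pdia3 (0.31 ± 0.05) and Erap1 (0.22 ± 0.08), with a median of 0.18, where 12.5% of all genes rose. Calr, Canx and Pdia3 fold glycoproteins in general as well as class I chains. Of the 14 ER stress genes 11 rose and 1 fell. Rfx5 fell by 0.38 ± 0.12 and Mr1 by 0.63 ± 0.10. Cd74, the class II invariant chain, was at 10.5 and 6.45 CPM in stressed GM and M media against 1.56 and 0.387 in the unstressed ones. Of the 3 class II genes tested it was the 1 that rose, while H2-DMa and H2-DMb1, chains of the class II peptide exchange factor, fell by 0.88 ± 0.25 and 0.32 ± 0.10 on the log2 scale.

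The kind of macrophage behind the medium made no difference past the threshold for any of the 10 genes in LLC cells, where 4.53% of all genes passed in either direction. H2-K1 came nearest, at 0.16 ± 0.06 (unadjusted p = 0.00799, edgeR adjusted p = 0.122), and it was 1.21-fold higher in stressed GM than in stressed M medium (interval 1.15 to 1.28) but 1.03-fold in the unstressed pair (interval 0.97 to 1.09).

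**Figure D3:**
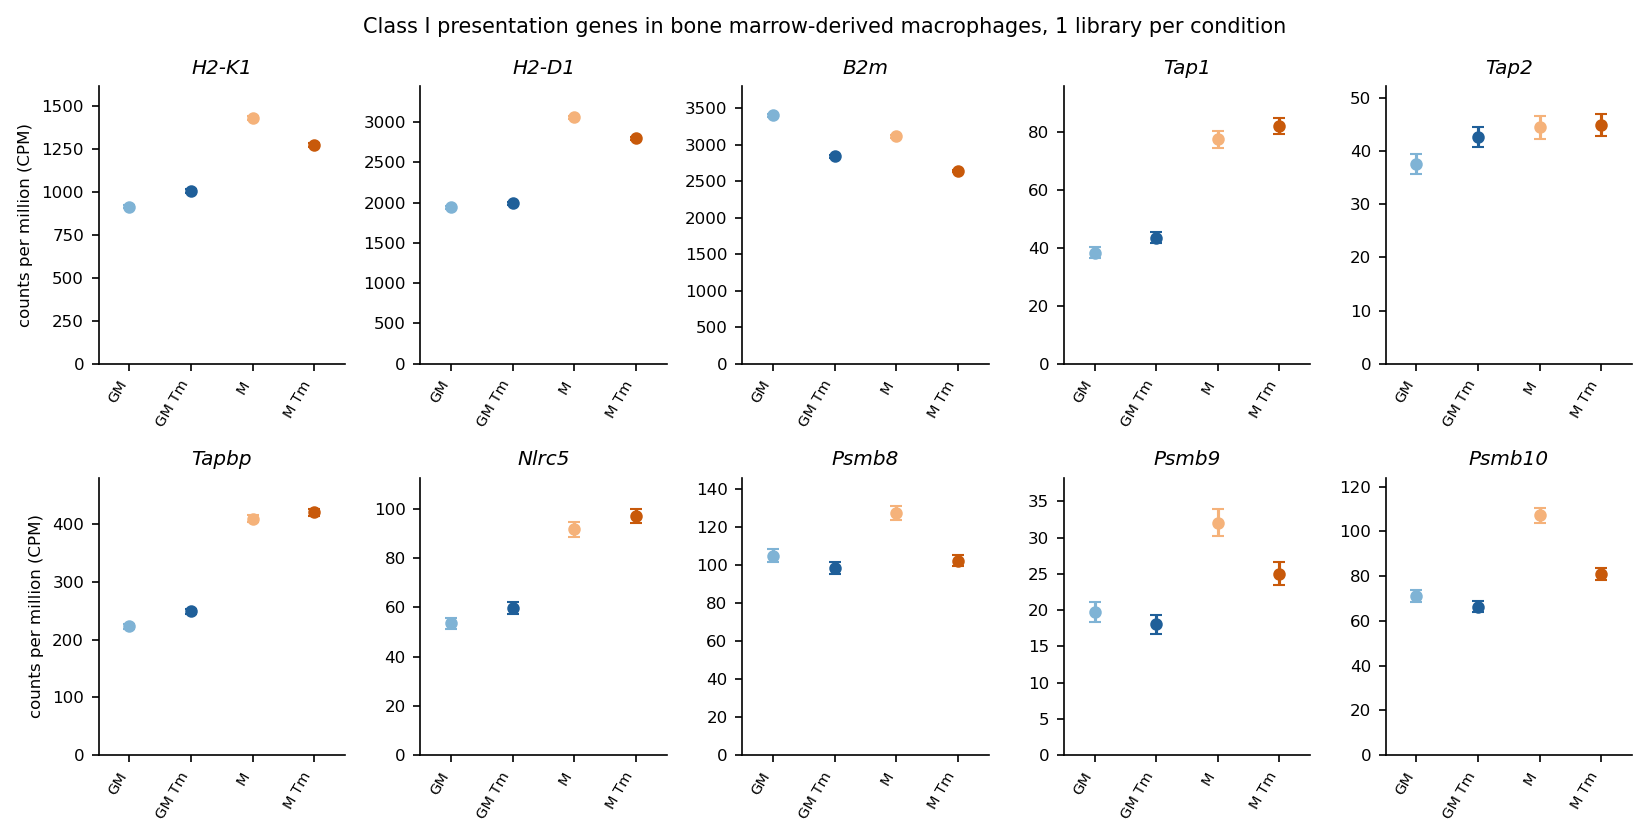
CPM of each of the 10 genes (vertical axis, linear from 0) in the 4 macrophage libraries, with exact 95% Poisson intervals that cover counting error only. Tap1, Tap2, Tapbp, Nlrc5, Psmb9, Psmb10, H2-D1 and H2-K1 lie lower in both GM-BMDM libraries than in both M-BMDM libraries, Tap2 by little. B2m and Psmb8 do not separate the 2 kinds. The share of all genes that separate in this way was not counted.

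In the macrophages themselves, 7 of the 10 genes were lower in GM-BMDM than in M-BMDM and none was higher. By the same edgeR fit 25.0% of all genes tested were lower and 25.4% higher. Tap1 differed most. It was at 38.3 CPM in untreated GM-BMDM and 43.4 after tunicamycin, against 77.3 and 81.8 in M-BMDM. Both GM libraries were below both M libraries, a split that was not counted over all genes. The fitted difference was -0.96 ± 0.12 (edgeR adjusted p = 0.000562), a level 1.95-fold lower. Tap2, its partner in the transporter, was lower by less and was not called: 37.6 and 42.7 CPM in GM-BMDM stood against 44.5 and 44.9 in M-BMDM (-0.16 ± 0.12, edgeR adjusted p = 0.316). A difference between Tap1 and Tap2 was not tested.

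Tapbp was at 223 CPM in untreated and 249 in tunicamycin-treated GM-BMDM, and at 409.6 and 420.4 in M-BMDM. The groups did not overlap, which was not counted over all genes, and the fitted difference was -0.82 ± 0.12 (edgeR adjusted p = 0.00124). Nlrc5 was at 53.5 and 59.7 CPM in GM-BMDM and at 91.6 and 97 in M-BMDM (-0.74 ± 0.11, edgeR adjusted p = 0.00169).

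The heavy chains were lower in GM-BMDM and the light chain was not. H2-D1 was at 1939 CPM in untreated and 1989 in tunicamycin-treated GM-BMDM, against 3059 and 2798 in M-BMDM (-0.58 ± 0.14, edgeR adjusted p = 0.0129). H2-K1 was at 913 and 1003 CPM in GM-BMDM, against 1428 and 1271 in M-BMDM (-0.49 ± 0.14, edgeR adjusted p = 0.0231). B2m was at 3404 and 2842 CPM in GM-BMDM and 3118 and 2641 in M-BMDM (0.12 ± 0.14, edgeR adjusted p = 0.513), so that the 2 kinds overlapped. Per length, the sum of the 2 heavy chains over B2m was 0.278 and 0.35 in GM-BMDM and 0.478 and 0.512 in M-BMDM.

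Of the inducible proteasome subunits, Psmb9 and Psmb10 were lower in GM-BMDM. Psmb9 was at 19.8 and 18 CPM in GM-BMDM and 32.1 and 25 in M-BMDM (-0.59 ± 0.13, edgeR adjusted p = 0.00931). Psmb10 was at 71 and 66.4 CPM in GM-BMDM and 107 and 80.8 in M-BMDM (-0.44 ± 0.13, edgeR adjusted p = 0.0247), and its call was lost with the kind alone in the fit (adjusted p = 0.065). Psmb8 was at 105 and 98.4 CPM in GM-BMDM and 127 and 102 in M-BMDM and was not called (-0.17 ± 0.12, edgeR adjusted p = 0.271).

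The constitutive counterparts Psmb5 (0.68 ± 0.13), Psmb6 (0.39 ± 0.11) and Psmb7 (0.40 ± 0.11) were all higher in GM-BMDM by the same test. Ratios per length were lower in both GM-BMDM libraries than in both M-BMDM libraries for all 3 pairs. Psmb8/Psmb5 was 1.18 and 1.12 in GM-BMDM against 2.19 and 1.97 in M-BMDM. Psmb10/Psmb7 was 1.73 and 1.7 against 3.38 and 2.81, and Psmb9/Psmb6 was 0.0687 and 0.0615 against 0.144 and 0.113. Between untreated libraries these ratios were 1.85-, 1.95- and 2.1-fold lower in GM-BMDM for Psmb8, Psmb10 and Psmb9. Psme1 (-0.61 ± 0.11) and Psme2 (-0.43 ± 0.13), the 2 chains of the interferon-inducible activator, were lower in GM-BMDM.

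Of 11049 genes tested, 25.0% were lower and 25.4% higher in GM-BMDM by the same test, and the median of all genes was -0.04 beside -0.53 for the 10. None of the 10 was past 2-fold lower on the log2(CPM + 1) scale in either pair of libraries, where 7.02% of genes were so between untreated and 7.82% between tunicamycin-treated macrophages. Tap1 lay at that limit: between untreated libraries its log2 difference was -0.99 with TMM and -1.04 with total reads, and its ratio of CPM without a pseudocount was 2.02-fold lower (interval 1.9 to 2.15). The 2 kinds also differed in markers of other cells. Dendritic cell markers summed to 1149 and 1107 CPM in GM-BMDM against 14.5 and 18 in M-BMDM. Neutrophil markers summed to 1689 and 1616 CPM against 241 and 231, and mast cell, basophil and eosinophil markers to 137 and 106 against 1.69 and 1.28. Macrophage markers summed to 49750.3 and 47278 CPM in GM-BMDM and 57603 and 37066 in M-BMDM. What part these have in the class I values was not tested, and in bulk RNA a smaller share of one cell type and less RNA per cell cannot be told apart.

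**Figure D4:**
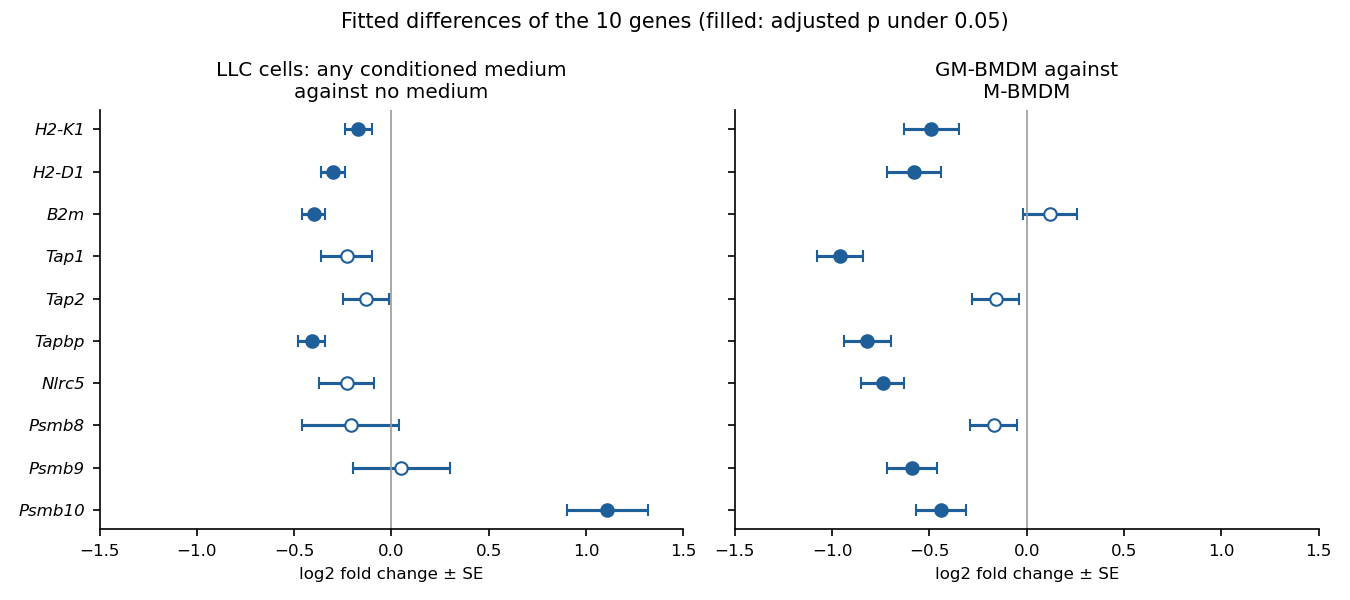
Fitted log2 fold change ± SE (horizontal axis) of the 10 genes for any medium against none in LLC cells (left) and for GM-BMDM against M-BMDM (right), with filled points where the edgeR adjusted p was under 0.05. Psmb10 stands at 1.11 on the left, and Tap1, Tapbp and Nlrc5 are the lowest on the right.

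Interferon-stimulated genes with no role in class I presentation were lower in GM-BMDM as well. Of 24 listed, 23 were tested and all 23 were called lower, with a median of -3.30 beside -0.53 for the 10 class I genes. Ifit3, which encodes an antiviral RNA-binding protein, was at 2.53 and 2.36 CPM in untreated and treated GM-BMDM against 163 and 128 in M-BMDM (-5.88 ± 0.15, edgeR adjusted p = 2.26e-06). Ifit1 was at 6.58 and 6.08 CPM against 156 and 124. Cxcl10, a chemokine for T cells, was at 0.472 and 0.707 CPM against 24.5 and 48.5.

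Among 30 regulators of class I transcription, 14 were lower in GM-BMDM and 3 higher, where 25.0% of all genes were lower and 25.4% higher. Irf1 was at 51 and 60.5 CPM in GM-BMDM against 125 and 229 in M-BMDM (-1.61 ± 0.17, edgeR adjusted p = 0.000264), and Irf7 at 5.56 and 7.28 against 165 and 153. Both GM libraries were below both M libraries for these 2 genes, a split that was not counted over all genes. Rfx5 was at -0.25 ± 0.13 and not called, and the feedback inhibitors Socs1 and Socs3 were among those higher, at 2.03 ± 0.31 and 1.28 ± 0.25. Interferon messages themselves were hardly read: Ifnb1 had 7 and 9 reads in untreated and treated M-BMDM and 0 and 1 in GM-BMDM, and the other 9 ligands had none in any macrophage library.

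Class II and several loading genes were higher in GM-BMDM. All 9 class II genes were higher in GM-BMDM (median 1.41), beside 25.4% of all genes. Of 18 genes of peptide loading and trimming, 8 were higher and 1 lower, with the trimming enzyme Lap3 at 1.38 ± 0.12 and Pdia4 at 1.57 ± 0.14. Tapbpl, a relative of tapasin that edits peptides, was the one that was lower (-0.72 ± 0.13), and Erap1 was at -0.29 ± 0.11 and not called. Other class I heavy chains were mixed, with 4 of 12 higher, a share not far from that of all genes, and 6 lower: Mr1 was at 2.80 ± 0.16 and Cd1d1, which presents lipids, at 2.07 ± 0.18, while H2-T24 was at -1.72 ± 0.14, H2-Q4 at -1.14 ± 0.13 and H2-T23 at -0.68 ± 0.11.

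**Figure D5:**
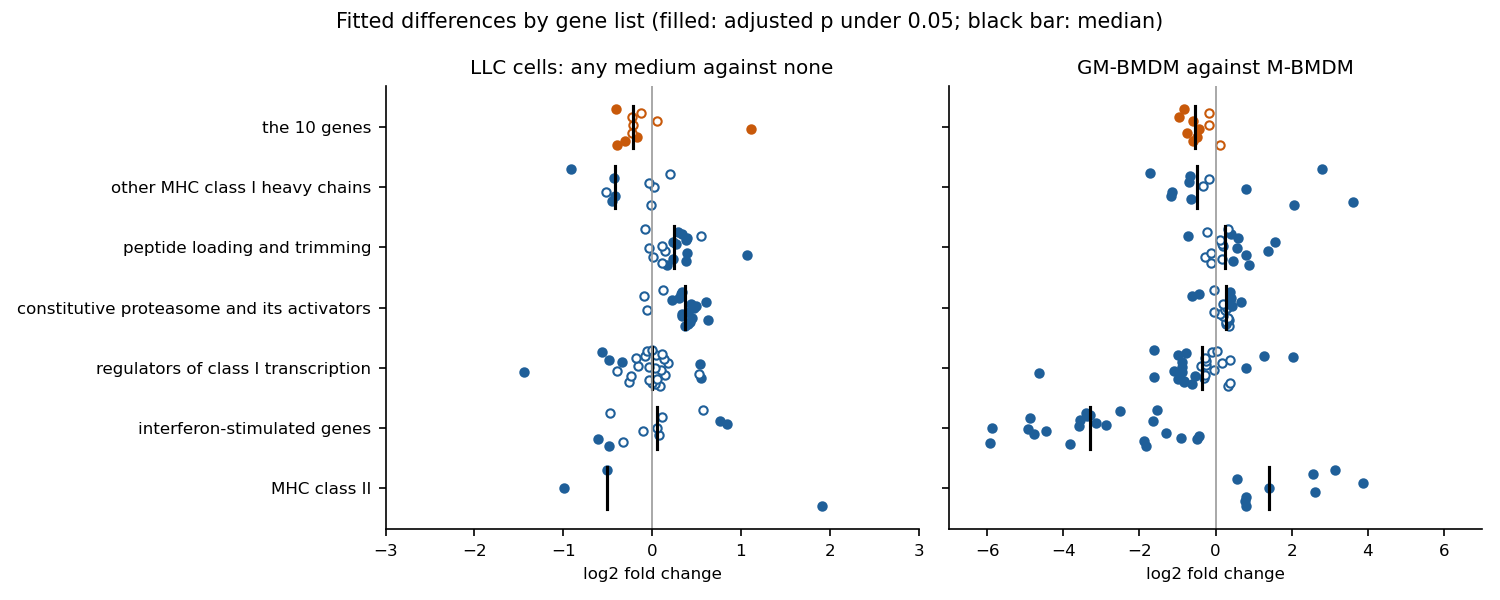
Fitted log2 fold change (horizontal axis) of every tested gene of 7 lists for any medium against none in LLC cells (left) and for GM-BMDM against M-BMDM (right), filled where the edgeR adjusted p was under 0.05, with a black bar at each list's median. Interferon-stimulated genes lie far to the left in the macrophage panel (median -3.30) and around 0 in the LLC panel (median 0.06).

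Tunicamycin for 4 h changed none of the 10 genes past the threshold in macrophages. The edgeR fit called no gene at all for this term (0 of 11049, or 0%), while 1103 genes had an unadjusted p under 0.05. By DESeq2 19 genes were called higher and 33 lower, none of them among the 10. The fit pools both kinds of macrophage. Chac1, a target of the integrated stress response and a check of the drug, was 9.36-fold higher with tunicamycin in GM-BMDM (interval 6.02 to 15.2) and 92.1-fold in M-BMDM (interval 59.5 to 151). Of the 10 genes, B2m was lower with tunicamycin in both kinds (ratio 0.835 in GM-BMDM, interval 0.828 to 0.841, and 0.847 in M-BMDM, interval 0.84 to 0.854). Psmb10 was at 0.934 in GM-BMDM (interval 0.886 to 0.984) and 0.754 in M-BMDM (interval 0.72 to 0.79). Tap1 was at 1.13 and 1.06 (intervals 1.06 to 1.21 and 1.01 to 1.11). The median log2 difference of the 10 was 0.09 in GM-BMDM and -0.15 in M-BMDM, beside 0.00 for all genes in each.

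Within each table the 4 highest of the 10 kept their order in every library. Per length (deposited FPKM), B2m was the most abundant of the 10 in every library, at 358 to 506 in LLC cells and 3273 to 3785 in macrophages. H2-D1 came next, at 211 to 269 in LLC cells and 719 to 1172 in macrophages, then H2-K1, at 49.8 to 61.9 and 335 to 541. Tapbp followed at 26.7 to 39.7 in LLC cells and 58.7 to 123 in macrophages. The inducible subunits Psmb8 and Psmb9 lay lowest in most LLC libraries, at 1.13 to 1.93, beside Nlrc5 at 1.69 to 2.43. The 2 tables used different gene models for some genes, H2-K1, Psmb8 and Psmb9 among them, so levels are not set against each other across tables.

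Neighbouring and related genes limit how firmly some of these reads can be assigned. Exons of Psmb9 and Tap1 overlap over 212 bases on opposite strands, or 5.79% and 3.87% of their exonic length in GENCODE M21. Tapbp overlaps Zbtb22, on the same strand, over 149 bases, and Zbtb22 had 632 to 794 reads in LLC and 1175 to 1732 in macrophage libraries. Tapbp also overlaps the antisense gene Gm19412 over 904 bases, Tap2 overlaps Gm15821 over 533, and Psmb8 overlaps Gm20496 over 498. Of these 3 antisense genes only Gm15821 was listed, in the macrophage table, with at most 1 read. How the authors' counting treated strand is not given in the sources used here, so reads of such pairs cannot be told apart. Of 100-base stretches of H2-K1 and H2-D1 transcripts, 0.957% and 3.59% occur in other genes, H2-Q10 and H2-Q1 first among them, while B2m and Psmb10 share none. Of 50-base stretches, 9.63% and 12.8% do. Tapbp had the largest share of the 10 genes, with 14.8% of 100-base and 23.2% of 50-base stretches.

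By distance between centred log2(CPM + 1) profiles, the genes nearest to the mean profile of the 10 were Smap2, Map2k5, Ppp1r37, Slc25a17 and Rpl11 over the 5 LLC libraries, and Inpp5k, Rsrc1, Fam168b, Sft2d1 and Tbc1d8 over the 4 macrophage libraries. The nearest in LLC cells, Smap2, was at a distance of 0.0396, closer than any of the 10 genes to their own mean (0.177 for Psmb8 to 1.05 for Psmb10). Inpp5k, the nearest in macrophages, ran from 54.5 and 55.4 CPM in GM-BMDM to 81.2 and 73.2 in M-BMDM, at a distance of 0.0092, against 0.0826 for H2-K1 and 0.63 for B2m. Over so few libraries these names are a description only.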

How the data were processed

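Total RNA of 9 mouse samples was sequenced. The authors deposited 2 tables, one of LLC cells and one of macrophages, with whole-number read counts and FPKM per gene. Each line of the deposited LLC table ends in a text cell with a stray carriage return, which was stripped. The unit of its count columns was recorded as other for that reason, and they held no cell that is not whole. Recomputed FPKM differed from the deposited FPKM by at most 4.9e-06. Per the submitters' processing notes, cutadapt 1.15, HISAT2 and TopHat2 2.1.0 were used, with no role given. Neither the counting tool nor its treatment of strand nor a build is named: each is not given in the sources used here. Among 21817 LLC gene IDs matched to GENCODE M21 (GRCm38), 99% had equal coordinates. From the deposited counts, CPM were computed here with TMM effective library sizes per table, and log2(CPM + 1) differences between 2 libraries, with 2-fold (a difference of 1) as the size rule. edgeR 4.0.16 quasi-likelihood fits had kind and tunicamycin as terms in macrophages, and in LLC cells medium (0 or 1), kind and tunicamycin (-0.5 or 0.5, with 0 for no medium). DESeq2 1.42.0, other scalings, pseudocounts, filters and single-term fits were tried as alternatives. On simulated data the LLC fit recovered 58 of 67 genes changed 1.5-fold and 65 of 67 changed 2-fold for medium. The macrophage fit recovered 19 of 67 and 62 of 67 for kind, so changes near 1.5-fold were often missed there. Every simulated library had the common dispersion that the same fit had estimated, so libraries or genes that vary more were not covered. All 10 genes, the fixed regulators and subunits, and the 3 genes of each other list with the largest difference in a comparison were the genes to be named. Canx, Pdia3 and some genes that led a list in another comparison were picked after their values were seen. The members and lists were chosen with earlier results of these data known.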

Additional observations from a re-analysis of the deposited data

Results flagged for a closer look

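H2-K1 and H2-D1 stood out because their levels moved in opposite directions with 4 h of tunicamycin in the 2 kinds of macrophage. H2-K1 was 1.1-fold higher in GM-BMDM (interval 1.08 to 1.12) and at 0.89 of the untreated level in M-BMDM (interval 0.88 to 0.901), a gap of 0.30 between the log2 differences. H2-D1 was 1.03-fold higher in GM-BMDM (interval 1.02 to 1.04) and at 0.915 in M-BMDM (interval 0.907 to 0.922), a gap of 0.17. The intervals cover counting error only, and the macrophage fit put the biological coefficient of variation at 11.5%. The changes of H2-D1 were smaller than that, and those of H2-K1 about as large. With 1 library per group the difference between the kinds was not tested. With total reads in place of TMM the M-BMDM differences shrank to -0.06 for H2-K1 and -0.02 for H2-D1, with the sign kept.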

How the results depend on the processing

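The edgeR calls for medium in LLC cells and for kind in macrophages stayed within 1.5 times the reported count under all 5 alternative fits each. For kind of medium and for tunicamycin in macrophages, the count among the 10 was 0 in every fit. DESeq2 gave no adjusted p for Tap1, Tap2, Nlrc5, Psmb8, Psmb9 and Psmb10 for kind of medium or for tunicamycin of the medium. It could therefore not call them. For tunicamycin of the medium, the 1 call became 0 with DESeq2, 2 with no filter on low counts (Psmb9 joined) and 0 with the term alone. Counts over all genes differed by over 1.5 times as follows. For medium in LLC cells, DESeq2 called 1009 genes higher and 985 lower and the term alone 846 and 771, against 2781 and 2450. For tunicamycin of the medium these were 313 and 169, and 540 and 352, against 1395 and 1216. For kind of medium they were 13 and 23, and 0 and 0 (290 at an unadjusted p under 0.05), against 247 and 260. For tunicamycin in macrophages DESeq2 called 19 and 33 and the fit with no filter 48 and 53, against 0. Scaling by total reads moved the median of all genes by 0.10 between the M-BMDM libraries and by -0.10 between the tunicamycin-treated kinds. The median of the 10 genes for tunicamycin in M-BMDM was then -0.04 by total reads and -0.04 by deposited FPKM, and that between tunicamycin-treated kinds -0.50 and -0.47. The other 56 alternative medians stayed within the counting interval of the reported ones. No paired analysis was possible because each group held 1 library. Depth limits Psmb8, Psmb9 and Psmb10 most in LLC cells, with 71 to 223 reads.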
